A study of Homo sapiens with 6 samples.

Results

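The genes described here are 50 genes of the lysosome, among 57500 gene identifiers in an RNA sequencing table of HEK293T cells that overexpress the arginine methyltransferase PRMT1. They were taken as a list of gene names, with no threshold on a measured value, though earlier results of these data were known when the list was made: 27 soluble enzymes of the lysosomal lumen, 5 lysosomal membrane proteins, 15 subunits and accessory proteins of the proton pump (V-ATPase) and the 3 transcription factors TFEB, TFE3 and MITF. PSAP, the precursor of the saposins that present lipids to hydrolases, is counted here with the soluble enzymes. HEK293T is a human cell line of embryonic kidney origin, widely used because it is easy to transfect. The series holds 3 libraries of cells labelled PRMT1 OV, given a pcDNA3 plasmid that carries PRMT1 with the PolyJet reagent, and 3 libraries of cells labelled WT with a vector control treatment, titled mock. The labels give transfection for the PRMT1 condition only, so it is not stated if control cells were given an empty plasmid with PolyJet, and an effect of transfection itself cannot be told apart from one of PRMT1. Expression from a transfected plasmid is usually transient and uneven between cells, and the libraries are of bulk RNA, in which fewer cells of a kind and less RNA per cell cannot be told apart. The labels also do not say whether the 3 libraries of a group came from separate cultures, and the p-values therefore rest on a spread that may be technical.

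Lysosomes are acidic organelles in which proteases, glycosidases, sulfatases and lipid hydrolases break down material delivered by endocytosis and autophagy. The V-ATPase pumps protons into the lumen: its V1 sector hydrolyses ATP in the cytosol and its membrane-bound V0 sector carries the protons across. TFEB, TFE3 and MITF are related transcription factors that bind E-box motifs in the promoters of many lysosomal genes, and their activity is regulated largely by phosphorylation and location in the cell.

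Values are TPM, transcript levels scaled by the authors to a total of 1000000 in each library. PRMT1 itself was at 71656, 62895 and 84923 TPM in the PRMT1 libraries, against 378, 397 and 368 TPM in the vector control libraries, and made up 6.29 to 8.49% of all TPM in the PRMT1 libraries. Because TPM is a share, this amount is missing from all other genes of those libraries. The values allow 18196833 to 23163960 reads to be recovered per library. As to the label of epithelial kidney cells, 4 of 5 epithelial markers reached 1 TPM in every library, with KRT8 at 78.8 ± 3.83 and 79.8 ± 3.92 TPM in PRMT1 and vector control libraries (SD, n = 3 each). Of 5 markers of mature kidney tubule only LRP2 did. All 7 macrophage markers were too low to test, with summed levels of 0.50 to 0.98 TPM in PRMT1 libraries and 0.53 to 0.75 TPM in vector control libraries. The melanocyte genes TYR and SOX10 were at 0 in all 6 libraries, and the 5 melanocyte markers summed to 3.13 to 4.36 TPM in PRMT1 libraries and 4.02 to 4.76 TPM in vector control libraries. Most of these sums was PMEL, the only 1 of the 5 that was tested. It averaged 3.12 ± 0.798 TPM in PRMT1 libraries and 3.96 ± 0.409 TPM in vector control libraries (SD, n = 3 each) and did not pass. Of 6 fibroblast markers 1 was tested, COL1A1, and it was lower; the list summed to 10.7 to 11.6 TPM in PRMT1 libraries and 12.8 to 18.1 TPM in vector control libraries, and its part in the results was not tested.

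In the PRMT1 libraries 10 soluble lysosomal enzymes were lower and none was higher with TPM as deposited, while TFEB, MITF and 6 genes of the proton pump were higher and 2 pump genes lower. The 6 higher pump genes were 40% of those tested, like the 40.3% of all tested genes that were higher. Of the 50 genes, 49 reached 1 TPM in at least 3 of the 6 libraries and were tested with limma on log2(TPM + 1), with p-values adjusted over all 15341 tested genes. A gene is called higher or lower in the PRMT1 libraries when its adjusted p is under 0.05. With TPM as deposited, 8 members were higher (16.3%) and 13 were lower (26.5%), where 40.3% of all tested genes were higher and 8.64% were lower. The median log2 fold change of the members was -0.10 and that of all tested genes was 0.30, and 41 of the 49 members lay below that of all tested genes. The 3 values of the PRMT1 libraries lay above all 3 vector control values for 12 members and below them for 16, where these shares over all tested genes were 49.8% and 11.6%.

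These counts changed with the way libraries were scaled. Median-of-ratios scaling shifted the median of all tested genes by -0.32, and 3 members were then higher and 35 lower, where 22.5% of all tested genes were higher and 25.5% lower. Under quantile normalization 4 members were higher and 22 lower, where 20.3% of all tested genes were higher and 19.4% lower. When PRMT1 was removed and the other genes were brought back to the full total, 13 were higher and 12 lower, where the shares over all tested genes were 49.2% and 5.74%. No member was called in opposite directions on any pair of these scales. Under all 3 of them 2 of the 8 higher calls were kept, ATP6V0A1 and TFEB, and 10 of the 13 lower calls: CTSA, CTSB, CTSD, TPP1, GAA, GLA, HEXA, MAN2B1, NEU1 and ARSA.

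**Figure D1:**
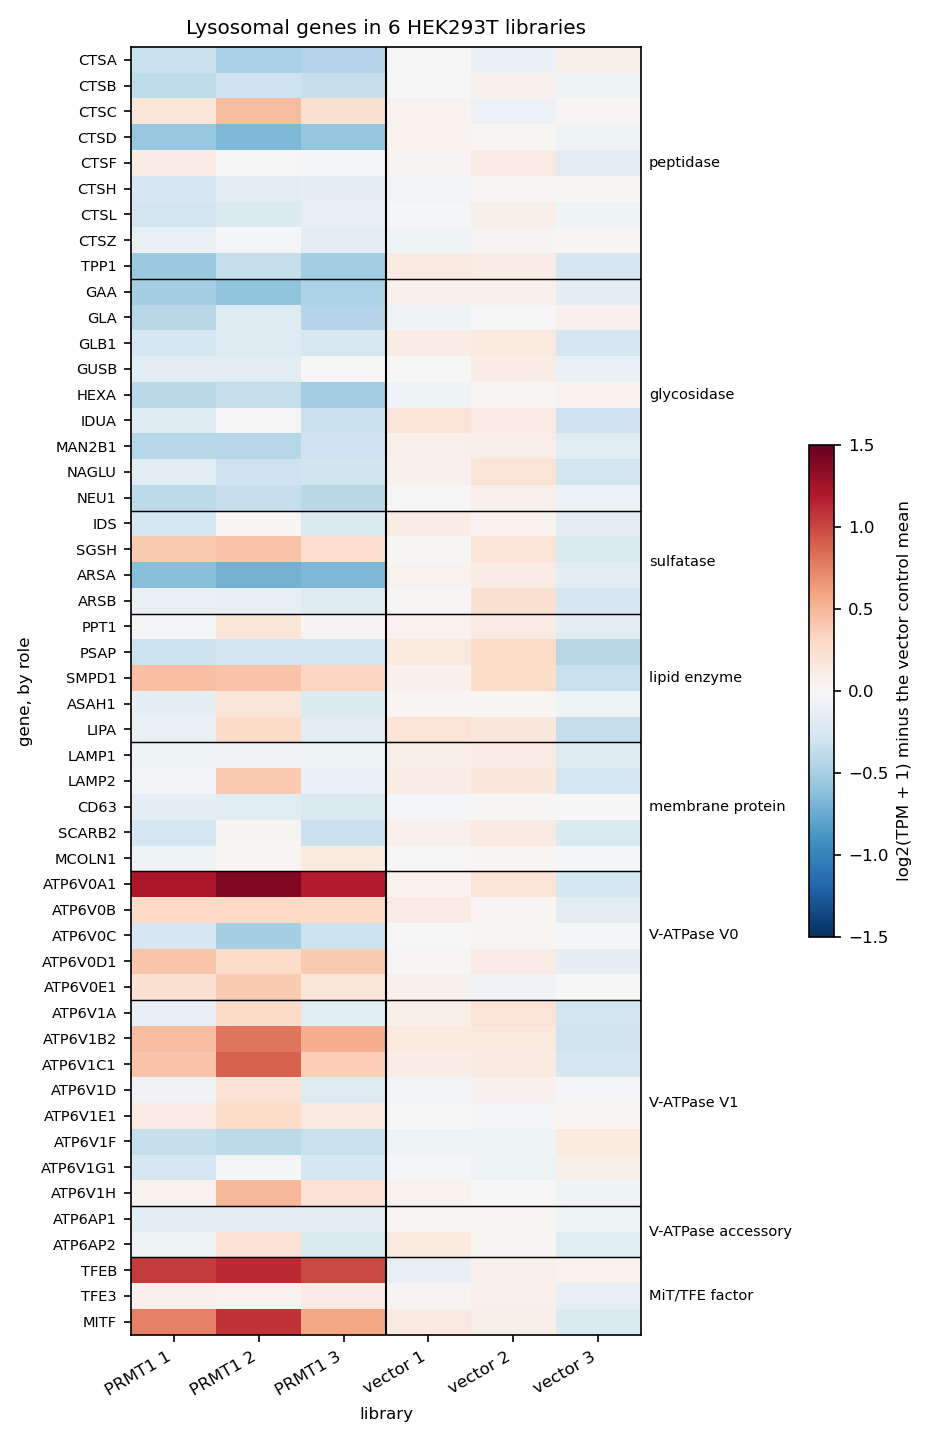
Colour shows log2(TPM + 1) of each of the 50 genes in each library minus the mean of the 3 vector control libraries, with genes grouped by role and the PRMT1 libraries on the left. Rows of CTSD, GAA, ARSA and TPP1 are blue in all 3 PRMT1 libraries, rows of ATP6V0A1, TFEB and MITF are red, and most other rows are pale.

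TFEB (ENSG00000112561, chromosome 6, 41683978 to 41736259, minus strand, GRCh38), a regulator of lysosome and autophagy genes, was at 7.75, 8.24 and 7.45 TPM in the PRMT1 libraries, against 2.88, 3.48 and 3.38 TPM in the vector control libraries. Every PRMT1 library was above every vector control library by more than the range within either group. The log2 fold change was 1.05 (standard error 0.12, limma adjusted p = 0.000455), or 2.41 as a ratio of mean TPM, from 826 and 331 recovered reads in the 3 PRMT1 and the 3 vector control libraries. It was 0.74 after median-of-ratios scaling and 0.59 under quantile normalization, called on both scales. MITF, best known as a regulator of pigment cells and osteoclasts, was at 4.57, 5.97 and 3.90 TPM in the PRMT1 libraries, against 2.60, 2.496 and 1.83 TPM in the vector control libraries. The PRMT1 values were again all higher, with library 2 highest and library 3 lowest, and the log2 fold change was 0.81 (standard error 0.18, limma adjusted p = 0.00751). MITF missed the threshold under quantile normalization (0.36, limma adjusted p = 0.0787).

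TFE3, the most abundant of the 3 factors here, was at 55.8, 55.3 and 57.8 TPM in the PRMT1 libraries, against 54.9, 56.3 and 48.7 TPM in the vector control libraries. The groups overlapped, and the log2 fold change of 0.08 (95% interval -0.11 to 0.27, limma adjusted p = 0.437) did not pass with TPM as deposited. Its sign turned under median-of-ratios scaling (-0.29, limma adjusted p = 0.0211) and under quantile normalization (-0.06, limma adjusted p = 0.619). TFE3 held most of the summed level of the 3 factors, which was 68.1, 69.6 and 69.2 TPM in PRMT1 libraries and 60.4, 62.2 and 53.9 TPM in vector control libraries. TPM is a level per transcript length, so the 3 genes can be set side by side.

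The factors of this family bind the E-box CACGTG, and a longer palindrome, CACGTG preceded by GT and followed by AC, is known from promoters of lysosomal genes as the CLEAR element. Promoter windows from RefSeq (GRCh38.p14), 250 bases before to 50 bases after a start, were matched for 37 of the 50 genes, with 54 starts. Both motifs read the same on both strands, and every copy of the longer motif also holds the short one. The short motif was found for 12 of the 37 genes (32.4%), against 2396 of 27305 genes in the whole RefSeq table (8.77%). The longer motif was found for 3 of the 37 (8.11%), against 115 of the 27305 (0.421%). Because that element is known from promoters of lysosomal genes, a higher share in a list of such genes is no new result. The RefSeq table was also not limited to genes expressed here. Stretches around the motif follow for the 3 genes with the longer one, for 5 called genes and for LAMP1, from 5′ to 3′ on the strand of the gene and with the motif in capitals, to set genes called in either direction side by side. CD63, which was lower, and ARSB and CTSF, which did not pass, also hold the short motif but are not printed. GAA (chr17:80101490-80101570, plus strand) holds the long palindrome at 2 places, MCOLN1 (chr19:7522568-7522623, plus strand) holds it beside a short one, and ATP6V1G1 (chr9:114587696-114587731, plus strand) holds it once.
GAA: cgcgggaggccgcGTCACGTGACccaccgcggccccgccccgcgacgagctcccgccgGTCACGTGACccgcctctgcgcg
MCOLN1: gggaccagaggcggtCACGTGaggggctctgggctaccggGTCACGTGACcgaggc
ATP6V1G1: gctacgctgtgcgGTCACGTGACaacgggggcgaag
The lower genes CTSA (chr20:45891278-45891330, plus strand), CTSD (chr11:1763954-1763989, minus strand) and NEU1 (chr6:31862927-31862962, minus strand) hold the short motif.
CTSA: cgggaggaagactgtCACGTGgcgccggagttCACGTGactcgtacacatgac
CTSD: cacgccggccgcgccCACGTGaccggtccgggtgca
NEU1: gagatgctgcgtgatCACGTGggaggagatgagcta
The higher pump genes ATP6V0B (chr1:43974888-43974941, plus strand) and ATP6V0D1 (chr16:67481196-67481231, minus strand) hold it too, as does LAMP1 (chr13:113297032-113297117, plus strand), which did not pass and whose printed stretch holds 4 copies.
ATP6V0B: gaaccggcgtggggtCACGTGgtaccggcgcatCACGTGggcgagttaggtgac
ATP6V0D1: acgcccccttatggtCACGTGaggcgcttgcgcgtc
LAMP1: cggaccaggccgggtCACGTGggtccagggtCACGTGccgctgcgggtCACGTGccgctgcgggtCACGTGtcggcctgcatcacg

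Genes with and without the motif changed in both directions. Of the 12 tested genes with CACGTG, 2 were higher and 5 lower with a median log2 fold change of -0.16 and a range of -0.61 to 0.36. Of the 24 tested genes whose windows lack it, 3 were higher and 5 lower with a median of -0.10 and a range of -0.48 to 1.26. For comparison, 40.3% of all tested genes were higher and 8.64% lower, with a median of 0.30. A match is a run of letters and not a measured binding site, and an absent match says only that these letters are not in the window. ARSA, ASAH1, ATP6V0E1, ATP6V1A, ATP6V1B2, ATP6V1C1, ATP6V1H, CTSB, HEXA, LAMP2, NAGLU, PSAP and SGSH had no matched window.

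Of the 9 tested peptidases 4 were lower (44.4%) and 0 higher, where 8.64% of all tested genes were lower and 40.3% higher. CTSD (ENSG00000117984, chromosome 11, 1752752 to 1764573, minus strand), the aspartic protease cathepsin D, was at 73.1, 68.1 and 72.7 TPM in the PRMT1 libraries, against 113, 111 and 104 TPM in the vector control libraries. All 3 PRMT1 values lay well below all 3 vector control values, and the log2 fold change of -0.61 (standard error 0.07, limma adjusted p = 0.000563) became -0.99 after median-of-ratios scaling and -0.38 after correction for GC content, called on both. A same-strand clone gene that shares 41.7% of its exonic bases was at 0.498 TPM in PRMT1 libraries and 0.458 TPM in vector control libraries. TPP1, the tripeptidyl peptidase whose loss causes a form of neuronal ceroid lipofuscinosis, was at 46.1, 52.8 and 47.2 TPM in the PRMT1 libraries, against 74.9, 73.4 and 57.2 TPM in the vector control libraries. The groups did not overlap, but vector control library 3 lay close to PRMT1 library 2, and the log2 fold change was -0.48 (standard error 0.12, limma adjusted p = 0.0127). CTSB, the cysteine protease cathepsin B, was at 54.3, 57.3 and 55.5 TPM in the PRMT1 libraries, against 71.0, 74.3 and 68.0 TPM in the vector control libraries. These groups did not overlap either (log2 fold change -0.35, limma adjusted p = 0.00577). CTSA, the carboxypeptidase that protects neuraminidase and beta-galactosidase in the lysosome, was at 20.7, 18.4 and 19.0 TPM in the PRMT1 libraries, against 26.3, 24.4 and 28.1 TPM in the vector control libraries. Its groups did not overlap (log2 fold change -0.42, limma adjusted p = 0.00769), and the value was -0.79 after median-of-ratios scaling and -0.26 after GC correction. In GENCODE 29 the exons of CTSA share 200 bases with PLTP on the opposite strand, which averaged 65.5 TPM in PRMT1 libraries and 99.2 TPM in vector control libraries, and without a stated strand setting reads of the shared bases cannot be told apart.

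The other 5 peptidases did not pass. CTSL, a cysteine protease, and CTSH, an aminopeptidase, were below the vector control libraries in all 3 PRMT1 libraries (log2 fold changes -0.20 and -0.19, limma adjusted p = 0.0612 and 0.0812). CTSC, which activates granule proteases in blood cells, had all 3 PRMT1 values above the vector control values (log2 fold change 0.30, limma adjusted p = 0.0664). CTSF and CTSZ overlapped between groups (0.03 and -0.10).

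Among the enzymes that cut sugars from glycans and glycolipids, 5 of 8 tested were lower (62.5%) and 0 higher. Of all tested genes 8.64% were lower and 40.3% higher. GAA (ENSG00000171298, chromosome 17, 80101556 to 80119879, plus strand), the acid alpha-glucosidase that degrades glycogen and is deficient in Pompe disease, was at 81.1, 75.5 and 82.7 TPM in the PRMT1 libraries, against 121, 121 and 105 TPM in the vector control libraries. The PRMT1 values were all lower, with the smallest gap to vector control library 3, and the log2 fold change was -0.53 (standard error 0.08, limma adjusted p = 0.00179). It was -0.90 after median-of-ratios scaling and -0.30 after GC correction. GLA, the alpha-galactosidase deficient in Fabry disease, was at 203, 238 and 199 TPM in the PRMT1 libraries, against 259.8, 272 and 284 TPM in the vector control libraries. The groups did not overlap, PRMT1 library 2 lay nearest to the vector control libraries, and the log2 fold change was -0.35 (limma adjusted p = 0.0109). HEXA, the alpha subunit of the hexosaminidase that degrades GM2 ganglioside, averaged 16.7 ± 1.01 TPM in PRMT1 libraries and 22.8 ± 1.03 TPM in vector control libraries (SD, n = 3 each, log2 fold change -0.43, limma adjusted p = 0.00596). NEU1, the lysosomal sialidase, averaged 34.1 ± 0.859 TPM in PRMT1 libraries and 44.8 ± 2.57 TPM in vector control libraries (SD, n = 3 each, log2 fold change -0.38, limma adjusted p = 0.00557).

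MAN2B1, the lysosomal alpha-mannosidase, was at 68.1, 68.2 and 74.1 TPM in the PRMT1 libraries, against 97.2, 99.0 and 80.8 TPM in the vector control libraries. All PRMT1 values were lower (log2 fold change -0.39, limma adjusted p = 0.0123), but the call was lost after correction for GC content (-0.25, limma adjusted p = 0.0686). A same-strand clone gene that shares 13.1% of its exonic bases averaged 2.38 TPM in PRMT1 libraries and 5.35 TPM in vector control libraries. GLB1, NAGLU and GUSB, which cut galactose, N-acetylglucosamine and glucuronic acid, had log2 fold changes of -0.23, -0.26 and -0.11 and did not pass. GUSB resembles many pseudogene copies, the highest of which, GUSBP14, averaged 5.54 TPM in PRMT1 libraries and 2.44 TPM in vector control libraries, so its own level is uncertain. IDUA, which acts on dermatan and heparan sulfate, was too low to test at 0.688, 0.931 and 0.526 TPM in the PRMT1 libraries, against 1.20, 1.09 and 0.555 TPM in the vector control libraries, from 54 and 69 recovered reads in PRMT1 and vector control libraries.

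Of 4 sulfatases 1 was lower (25%) and 0 were higher, where 8.64% of all tested genes were lower and 40.3% higher. ARSA (ENSG00000100299, chromosome 22, 50622754 to 50628173, minus strand), the arylsulfatase that degrades sulfatide and is deficient in metachromatic leukodystrophy, was at 13.9, 13.2 and 13.6 TPM in the PRMT1 libraries, against 23.0, 24.1 and 19.7 TPM in the vector control libraries. The PRMT1 values lay within 1 TPM of each other and below every vector control value. ARSA had the lowest log2 fold change of the 49 tested members, -0.67 (standard error 0.10, limma adjusted p = 0.00154), which became -1.03 after median-of-ratios scaling and -0.41 after correction for GC content (limma adjusted p = 0.018). SGSH, which removes sulfate from heparan sulfate, was higher in every PRMT1 library without passing (0.36, limma adjusted p = 0.0556), and IDS and ARSB overlapped between groups (-0.15 and -0.14).

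None of the 5 genes of lipid breakdown passed with TPM as deposited. PSAP, the precursor of the saposins that present lipids to hydrolases, was at 553, 575 and 569.9 TPM in the PRMT1 libraries, against 766, 839 and 518 TPM in the vector control libraries. Vector control library 3 lay below all PRMT1 libraries and the other two vector control libraries above them, so the groups overlapped (log2 fold change -0.29, limma adjusted p = 0.17). SMPD1, the acid sphingomyelinase, was at 7.34, 7.16 and 6.63 TPM in the PRMT1 libraries, against 5.34, 6.34 and 3.85 TPM in the vector control libraries. Its PRMT1 values were all higher, vector control library 2 came within 1 TPM of them, and the test was not passed (0.40, limma adjusted p = 0.0765). The palmitoyl thioesterase PPT1, the acid ceramidase ASAH1 and the acid lipase LIPA had log2 fold changes of 0.07, -0.06 and 0.0032. PPT1 shares 23.4% of its exonic bases with CAP1 on the opposite strand, so its level is uncertain.

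The 27 soluble enzymes, with the saposin precursor PSAP counted among them, together summed to 1811, 1928 and 1849 TPM in PRMT1 libraries and 2349, 2475 and 1968 TPM in vector control libraries. The groups did not overlap, but PRMT1 library 2 and vector control library 3 were close, and PSAP alone gave 553, 575 and 569.9 TPM and 766, 839 and 518 TPM of these sums. When PRMT1 was removed and the total restored, the sums were 1950.2, 2057 and 2021 TPM in PRMT1 libraries and 2350.2, 2475 and 1969 TPM in vector control libraries, and the groups overlapped. The count of called soluble enzymes was 10 lower and 0 higher with TPM as deposited, 23 and 0 after median-of-ratios scaling, 19 and 0 under quantile normalization, and 10 and 3 with PRMT1 removed. The 3 higher on the last scale were CTSC, SGSH and SMPD1. Among all tested genes the lower shares on these scales, in the same order, were 8.64%, 25.5%, 19.4% and 5.74%. The higher shares were 40.3%, 22.5%, 20.3% and 49.2%. The log2 fold changes of the 10 lower enzymes lay between -0.67 and -0.35 with TPM as deposited, between -1.03 and -0.72 after median-of-ratios scaling and between -0.47 and -0.25 after GC correction.

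**Figure D2:**
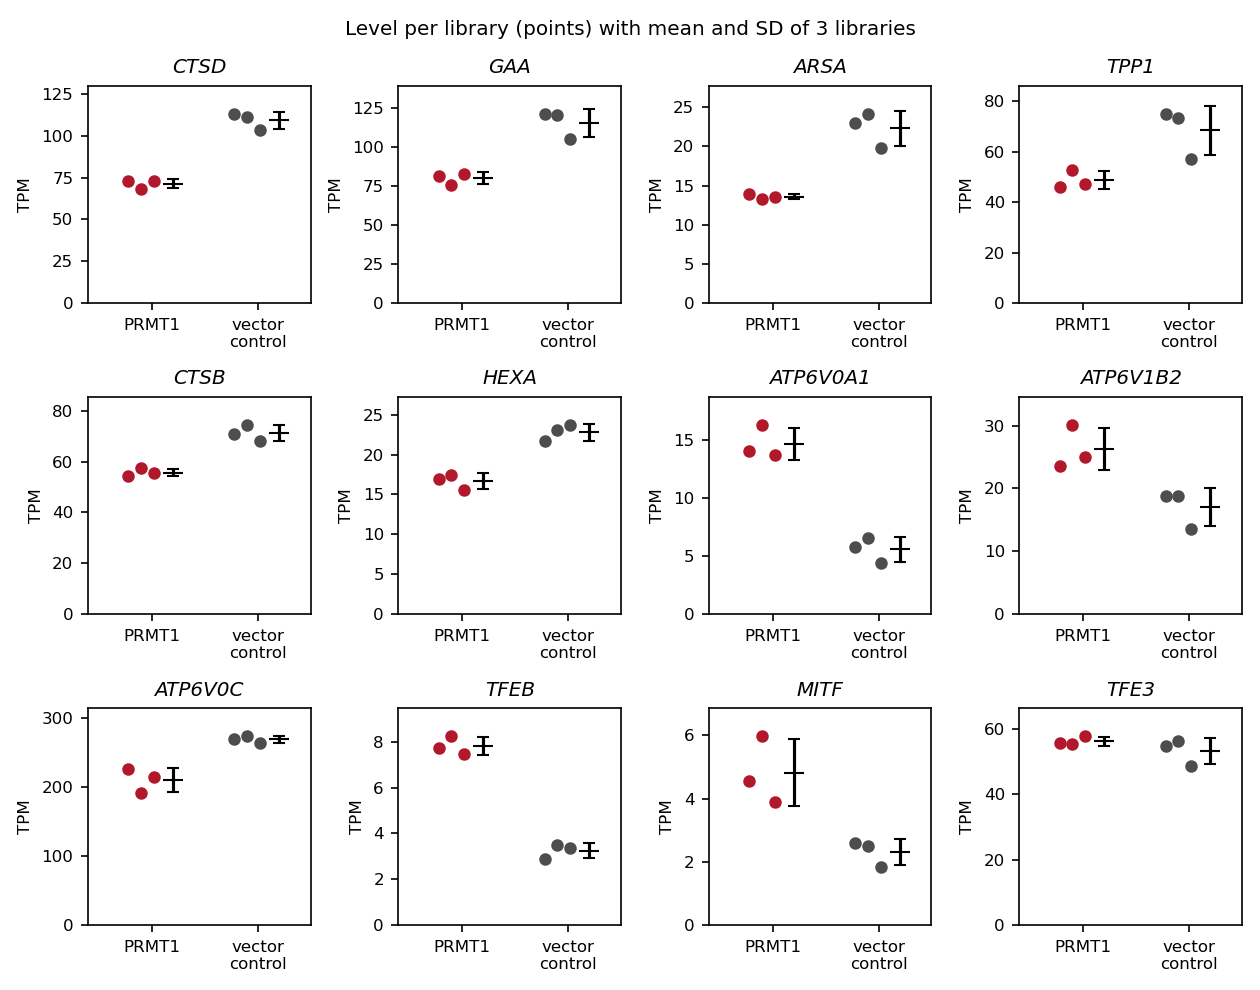
Points give TPM in each library for 12 genes, with the PRMT1 libraries left of the vector control libraries and the mean and SD of 3 libraries beside them; each axis starts at 0. The enzymes CTSD, GAA, ARSA, TPP1, CTSB and HEXA and the pump gene ATP6V0C are lower in the PRMT1 libraries, ATP6V0A1, ATP6V1B2, TFEB and MITF are higher, and TFE3 overlaps; the TFE3 difference turns sign under 2 of the scalings.

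Of the 5 membrane proteins 1 was lower (20%) and 0 were higher, where 8.64% of all tested genes were lower and 40.3% higher. CD63, a tetraspanin of late endosomes and exosomes, was at 312, 302 and 296 TPM in the PRMT1 libraries, against 339, 349 and 342 TPM in the vector control libraries. The PRMT1 values were all lower and the log2 fold change was -0.18 (standard error 0.06, limma adjusted p = 0.0318). The call held in 9 of 18 alternatives. It was lost under quantile normalization (-0.04, limma adjusted p = 0.598), with PRMT1 removed, and without PRMT1 library 1 or 3 or vector control library 1 or 2 (limma adjusted p = 0.0788, 0.110, 0.0882 and 0.0994). An antisense gene that shares 237 of its exonic bases averaged 6.31 TPM in PRMT1 libraries and 2.32 TPM in vector control libraries. LAMP1 and LAMP2, the heavily glycosylated proteins that line the lysosomal membrane, had log2 fold changes of -0.06 (95% interval -0.29 to 0.16) and 0.09 (-0.28 to 0.45) with overlapping groups. SCARB2, an abundant protein of the lysosomal membrane, and MCOLN1, a lysosomal calcium channel, also overlapped (-0.18 and 0.03). After median-of-ratios scaling 4 of the 5 were lower, all but LAMP2, where 25.5% of all tested genes were lower.

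Genes of the V-ATPase moved in both directions: of 15 tested, 6 were higher and 2 lower with TPM as deposited, 3 higher and 1 lower under quantile normalization and 8 higher and 2 lower with PRMT1 removed, but 1 higher and 7 lower after median-of-ratios scaling. With TPM as deposited 40% of the pump genes were higher, a share like the 40.3% of all tested genes, and 13.3% were lower, against 8.64% of all tested genes. Under quantile normalization 20.3% of all tested genes were higher and 19.4% lower. With PRMT1 removed these shares were 49.2% and 5.74%, and after median-of-ratios scaling 22.5% and 25.5%. The membrane sector V0 held 4 of the higher genes and 1 lower gene of 5. ATP6V0A1 (ENSG00000033627, chromosome 17, 42458844 to 42522611, plus strand), the a1 subunit of the proton path, known from neurons and synaptic vesicles, was at 14.1, 16.3 and 13.7 TPM in the PRMT1 libraries, against 5.79, 6.56 and 4.45 TPM in the vector control libraries. The lowest PRMT1 value was above 2 times the highest vector control value. The log2 fold change of 1.26 (standard error 0.15, limma adjusted p = 0.000523), or 2.63 as a ratio of mean TPM, was the highest among the members, from 3019 and 1110 recovered reads in PRMT1 and vector control libraries. It was 0.92 after median-of-ratios scaling and 0.83 under quantile normalization, and 95.5% of all tested genes had a lower value with TPM as deposited.

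ATP6V0B, a ring subunit, was at 102, 102 and 102 TPM in the PRMT1 libraries, against 90.4, 84.5 and 74.4 TPM in the vector control libraries. The PRMT1 values were nearly equal and above every vector control value (log2 fold change 0.30, standard error 0.08, limma adjusted p = 0.0218). ATP6V0D1, which joins the ring to the central stalk, averaged 29.1 ± 1.52 TPM in PRMT1 libraries and 22.5 ± 2.13 TPM in vector control libraries (SD, n = 3 each, log2 fold change 0.36, limma adjusted p = 0.0177). ATP6V0E1, a small subunit of V0, averaged 103 ± 8.26 TPM in PRMT1 libraries and 85.1 ± 3.62 TPM in vector control libraries (SD, n = 3 each, log2 fold change 0.27, limma adjusted p = 0.027). The sign of these 3 genes turned after median-of-ratios scaling (-0.08, -0.01 and -0.11), where none passed. ATP6V0D1 was at 0.05 under quantile normalization (limma adjusted p = 0.712). The calls of ATP6V0B and ATP6V0D1 were also lost without PRMT1 library 1 (limma adjusted p = 0.0700 and 0.0708) or PRMT1 library 3 (0.0553 and 0.0548). That of ATP6V0E1 was lost without PRMT1 library 1 or 2 or vector control library 2 (limma adjusted p = 0.0651, 0.0562 and 0.0832).

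ATP6V0C, the main subunit of the proton-carrying ring, went the other way from its V0 partners and was at 225, 190.4 and 214 TPM in the PRMT1 libraries, against 269.6, 273 and 263 TPM in the vector control libraries. All PRMT1 values were lower, with library 2 lowest (log2 fold change -0.36, standard error 0.08, limma adjusted p = 0.00672). The call was lost under quantile normalization (-0.26, limma adjusted p = 0.0615) and after GC correction. In GENCODE 29, 57.5% of its exonic bases are shared with a same-strand clone gene listed at 0.351 TPM in PRMT1 libraries and 0.172 TPM in vector control libraries.

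In the catalytic sector V1, 2 of 8 genes were higher (25%) and 1 was lower (12.5%), where 40.3% and 8.64% of all tested genes were. ATP6V1B2, the B subunit beside the catalytic A subunit, was at 23.6, 30.1 and 25.1 TPM in the PRMT1 libraries, against 18.8, 18.8 and 13.5 TPM in the vector control libraries. PRMT1 library 2 was highest and vector control library 3 lowest, with no overlap (log2 fold change 0.60, standard error 0.15, limma adjusted p = 0.013). ATP6V1C1, which links the stator of V1 to V0, was at 17.2, 23.8 and 16.4 TPM in the PRMT1 libraries, against 13.6, 13.8 and 10.3 TPM in the vector control libraries. The same libraries were at the extremes (log2 fold change 0.56, limma adjusted p = 0.0277). Neither passed after median-of-ratios scaling (0.24 and 0.20) or quantile normalization (0.27 and 0.18), and ATP6V1C1 also missed the threshold without PRMT1 library 2 (limma adjusted p = 0.0648) or vector control library 3 (limma adjusted p = 0.0702). Without both of these libraries the log2 fold changes of ATP6V1B2 and ATP6V1C1 were 0.36 and 0.27.

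ATP6V1F, a subunit of the central stalk and the most abundant member here, was at 1017, 992 and 1033 TPM in the PRMT1 libraries, against 1239, 1245 and 1447 TPM in the vector control libraries. The PRMT1 values were all lower, and vector control library 3 stood above the other two (log2 fold change -0.37, standard error 0.07, limma adjusted p = 0.00495). The call was lost under quantile normalization (-0.10, limma adjusted p = 0.22). ATP6V1F shares 23.7% of its exonic bases with KCP on the opposite strand, which averaged 0.554 TPM in PRMT1 libraries and 0.849 TPM in vector control libraries. The catalytic subunit ATP6V1A had a log2 fold change of -0.0017 (95% interval -0.38 to 0.38), and ATP6V1D, ATP6V1E1, ATP6V1G1 and ATP6V1H lay between -0.18 and 0.25, none past the threshold. The accessory proteins ATP6AP1, an assembly factor of the pump, and ATP6AP2, the prorenin receptor, had log2 fold changes of -0.16 and -0.03 (limma adjusted p = 0.0542 and 0.891).

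The pump genes summed to 2217, 2279.8 and 2207 TPM in PRMT1 libraries and 2515, 2508 and 2664 TPM in vector control libraries, so the summed level was lower although more of the genes were higher with TPM as deposited. ATP6V1F alone averaged 1014 ± 20.7 TPM in PRMT1 libraries and 1310.1 ± 118 TPM in vector control libraries. When PRMT1 was removed and the total restored, the sums were 2388, 2433 and 2412 TPM in PRMT1 libraries and 2516, 2509 and 2665 TPM in vector control libraries, again without overlap.

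**Figure D3:**
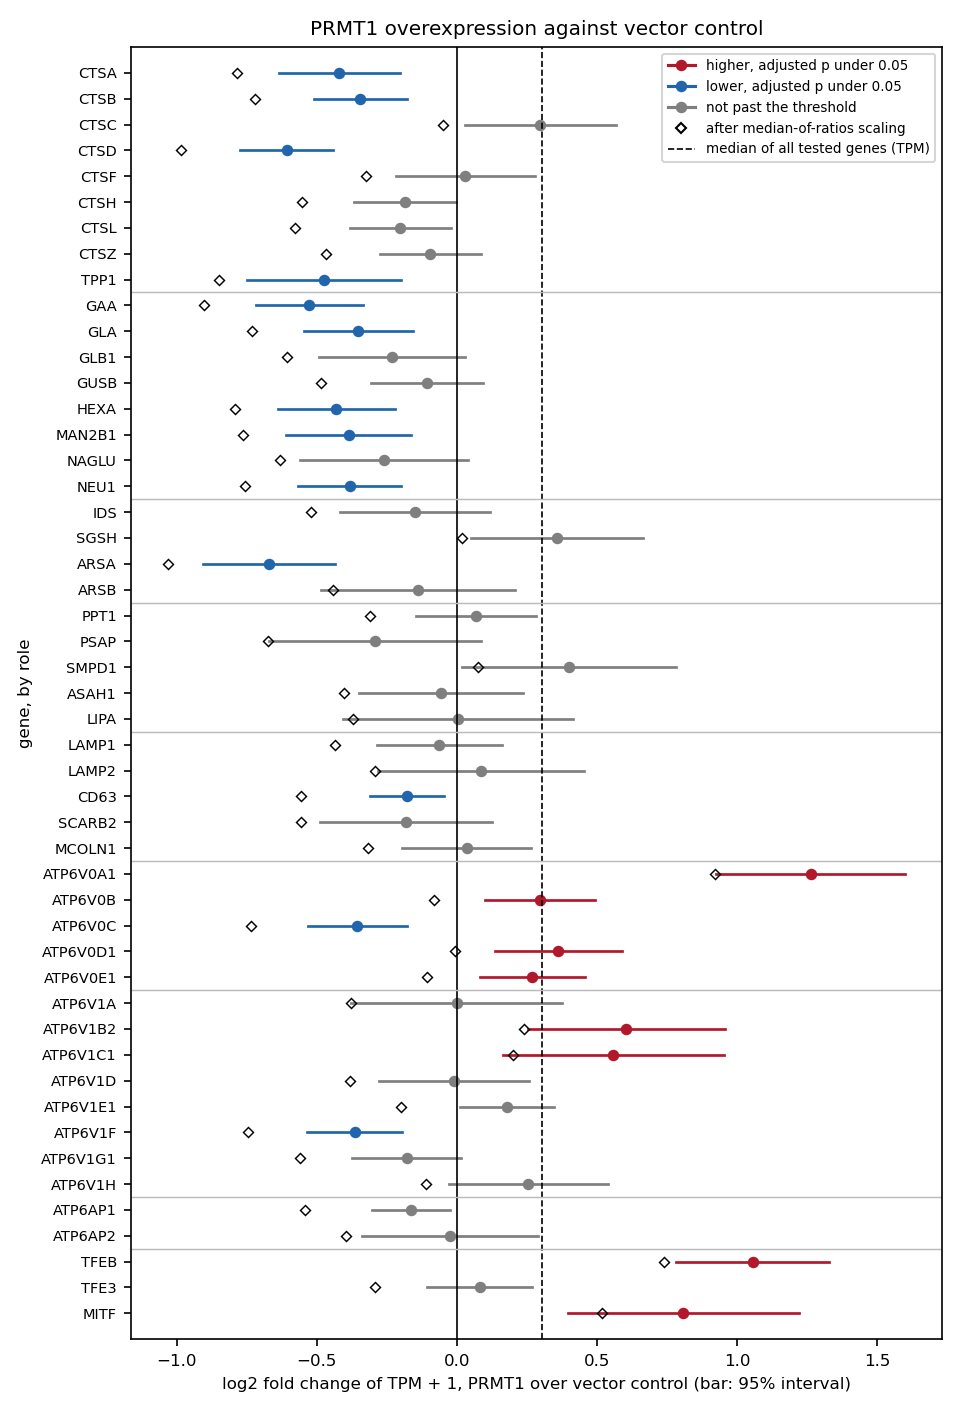
Each filled point is the log2 fold change of TPM + 1, PRMT1 over vector control, of 1 of the 49 tested genes with its 95% interval, coloured by call; open diamonds give the value after median-of-ratios scaling and the dashed line the median of all tested genes, 0.30. ATP6V0A1 at 1.26, TFEB at 1.05 and MITF at 0.81 lie farthest right of the dashed line, the 10 lower enzymes lie between -0.67 and -0.35, and the diamonds lie to the left of their points.

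The members are mostly abundant genes, and abundant genes in general had lower fold changes. When all tested genes were split by mean level into 4 groups of equal size, their median log2 fold changes were 0.38, 0.46, 0.36 and 0.03 from the lowest to the highest group. The members lay in the upper 3 groups, with 6, 12 and 31 genes and medians of 0.38, 0.03 and -0.18. Across the 49 members, which share the same 6 libraries, the log2 fold change and the log2 of the mean level had Pearson r = -0.52 and Spearman rho = -0.44, given as a description. GC content moved with the change as well. The median GC content of exons was 49.0% for the 8 higher members, 54.7% for the 13 lower members and 49.6% for the other tested members. Protein-coding genes split in the same way by GC content had medians of 0.50, 0.37, 0.26 and 0.09 from the lowest to the highest group. In these groups 8, 11, 15 and 15 members had medians of 0.19, -0.01, -0.20 and -0.10. After correction for GC content 10 members were higher and 11 lower, where 42.6% of all tested genes were higher and 7.26% lower. With array weights, which let less regular libraries count for less, 12 members were higher and 27 lower, where 51.0% of all tested genes were higher and 18.5% lower. The part of level and of GC content in the members' differences was not tested beyond this correction.

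**Figure D4:**
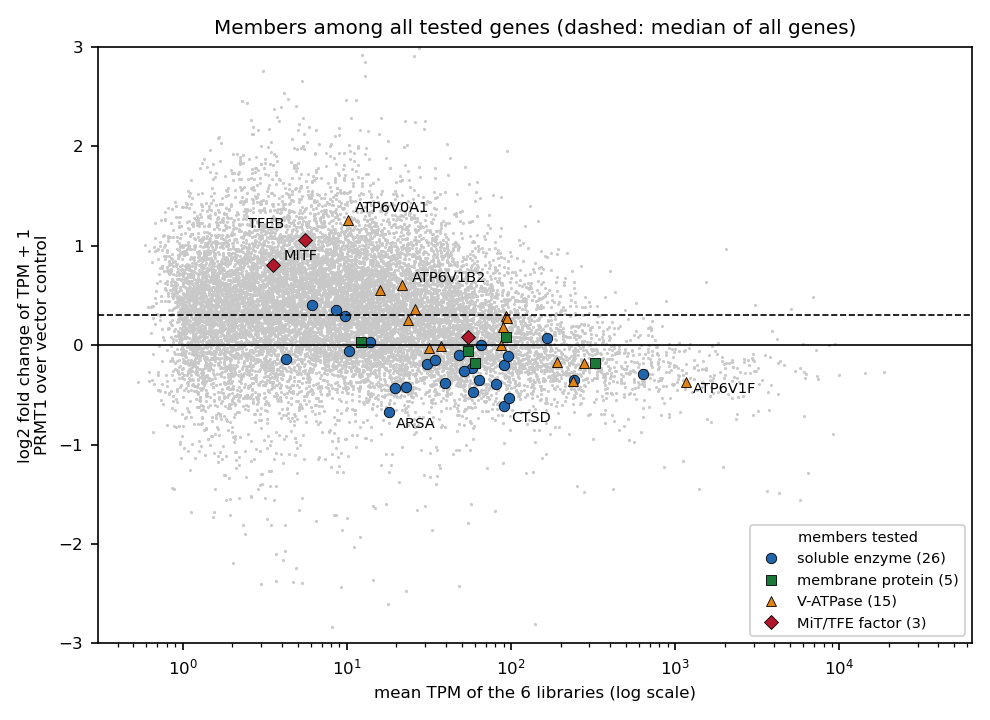
The log2 fold change, PRMT1 over vector control, is plotted against the mean TPM of the 6 libraries on a log axis for all tested genes (grey) and for the 49 tested members, with the median of all tested genes dashed; 14 tested genes lie outside the plotted range. Most members lie at the right below the dashed line, and ATP6V0A1, TFEB and MITF lie farthest above it, at low levels.

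Vector control library 3 and PRMT1 library 2 were each the farthest from the mean of their group for TPP1, ATP6V1B2 and ATP6V1C1, and vector control library 3 also for PSAP. Without these 2 libraries 9 members were higher and 26 lower, where 37.4% of all tested genes were higher and 14.7% lower. The lower calls then included 16 soluble enzymes, 4 membrane proteins and 6 pump genes. In every one of the 18 alternatives ATP6V0A1 and TFEB were higher and CTSA, CTSB, CTSD, TPP1, GAA, GLA, HEXA, NEU1 and ARSA were lower.

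Beyond the 50 genes, 161 further genes of the lysosome, its sorting and sensing pathways and autophagy were read from 6 lists written from general knowledge, of which 149 were tested, 62 higher and 17 lower with TPM as deposited and 28 higher and 45 lower after median-of-ratios scaling. With TPM as deposited 41.6% were thus higher and 11.4% lower, close to the 40.3% and 8.64% of all tested genes, and after median-of-ratios scaling 18.8% were higher and 30.2% lower, where 22.5% and 25.5% of all tested genes were. Other proteins of the lysosomal lumen, 27 tested, had 5 higher (18.5%) and 8 lower (29.6%) with a median log2 fold change of -0.05 (2 and 15 after median-of-ratios scaling). The peptidase gene DPP7 averaged 11.1 ± 1.85 TPM in PRMT1 libraries and 3.33 ± 0.426 TPM in vector control libraries (SD, n = 3 each), which gave a log2 fold change of 1.48 (limma adjusted p = 0.000302). The acid phosphatase ACP2 (1.09) was also higher. PLBD2 (-0.67), the ribonuclease RNASET2 (-0.42) and the exonuclease PLD3 (-0.32) were lower, PLD3 not after GC correction.

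Other lysosomal membrane proteins, 26 tested, had 14 higher (53.8%) and 1 lower (3.85%), where 40.3% and 8.64% of all tested genes were, with a median log2 fold change of 0.50 (6 and 5 after median-of-ratios scaling). After that scaling 23.1% were thus higher and 19.2% lower, where 22.5% and 25.5% of all tested genes were. The cation channel TPCN1 (1.26), the cationic amino acid exporter SLC66A1 (1.22) and the peptide and histidine transporter SLC15A4 (1.00) were higher (limma adjusted p at most 0.000415), and GLMP was lower (-0.50, limma adjusted p = 0.00228). The median of their mean levels was 6.35 TPM, against 53.2 TPM for the 50 genes. Other V-ATPase subunits and assembly factors, 16 tested, had 7 higher (43.8%) and 1 lower (6.25%) with a median of 0.40 (4 and 2, or 25% and 12.5%, after median-of-ratios scaling). ATP6V0A2, the a2 partner of ATP6V0A1, averaged 3.70 ± 0.336 TPM in PRMT1 libraries and 1.33 ± 0.206 TPM in vector control libraries (SD, n = 3 each, log2 fold change 1.01, limma adjusted p = 0.0013). The pump-binding gene NCOA7 (0.98) and the assembly factor WDR7 (0.80) were higher and RNASEK was lower (-0.50), WDR7 without passing under quantile normalization.

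The genes that tag and sort enzymes by mannose 6-phosphate, 12 tested, had 6 higher (50%) and 0 lower, where 40.3% and 8.64% of all tested genes were. Their median log2 fold change was 0.33 (1 higher and 1 lower after median-of-ratios scaling, where 22.5% and 25.5% of all tested genes were). Higher genes included the phosphotransferase GNPTAB (0.62) and the adaptors GGA3 (0.85) and GGA1 (0.37). Genes of nutrient sensing at the lysosome, 23 tested, had 9 higher (39.1%) and 4 lower (17.4%) with a median of 0.11. The higher share was like the 40.3% of all tested genes. After median-of-ratios scaling 3 were higher (13.0%) and 10 lower (43.5%), where 22.5% and 25.5% of all tested genes were. The GTPase RRAGA averaged 141 ± 4.86 TPM in PRMT1 libraries and 76.5 ± 5.36 TPM in vector control libraries (SD, n = 3 each, log2 fold change 0.88, limma adjusted p = 0.000189). RPTOR, which brings substrates to mTORC1, and its inhibitor TSC1 were higher (0.69 and 0.71), while the Ragulator subunits LAMTOR4 and LAMTOR5 and the GATOR1 subunit NPRL3 were lower (-0.40, -0.28 and -0.24). LAMTOR5 and NPRL3 did not pass with PRMT1 removed. LAMTOR5 also missed the threshold without PRMT1 library 3 or vector control library 1 (limma adjusted p = 0.0679 and 0.0767). NPRL3 missed it after GC correction and without PRMT1 library 1 or 3 or vector control library 1 or 2 (limma adjusted p = 0.116, 0.0519, 0.078 and 0.0787). GNPTAB and GGA1 passed neither after median-of-ratios scaling nor under quantile normalization, and TSC1 did not pass under quantile normalization.

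Autophagy genes, 45 tested, had 21 higher (46.7%) and 3 lower (6.67%), where 40.3% and 8.64% of all tested genes were, with a median log2 fold change of 0.43 (12 and 12 after median-of-ratios scaling). After that scaling 26.7% were thus higher and 26.7% lower, where 22.5% and 25.5% of all tested genes were. The lipid kinase subunit PIK3R4 averaged 15.9 ± 3.19 TPM in PRMT1 libraries and 4.77 ± 0.891 TPM in vector control libraries (SD, n = 3 each, log2 fold change 1.55, limma adjusted p = 0.000441). The protease ATG4B (0.90) and the initiation factor ATG101 (0.68) were higher, and the ubiquitin-like protein GABARAP (-0.41), the fusion protein VAMP8 (-0.24) and the receptor OPTN (-0.29) were lower. The call of VAMP8 was lost with PRMT1 removed and without PRMT1 library 1 or 3 or vector control library 1 or 2 (limma adjusted p = 0.0671, 0.0708, 0.0794 and 0.0685). That of OPTN was lost with PRMT1 removed and without any single library other than vector control library 3 (limma adjusted p = 0.0582 to 0.155).

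**Figure D5:**
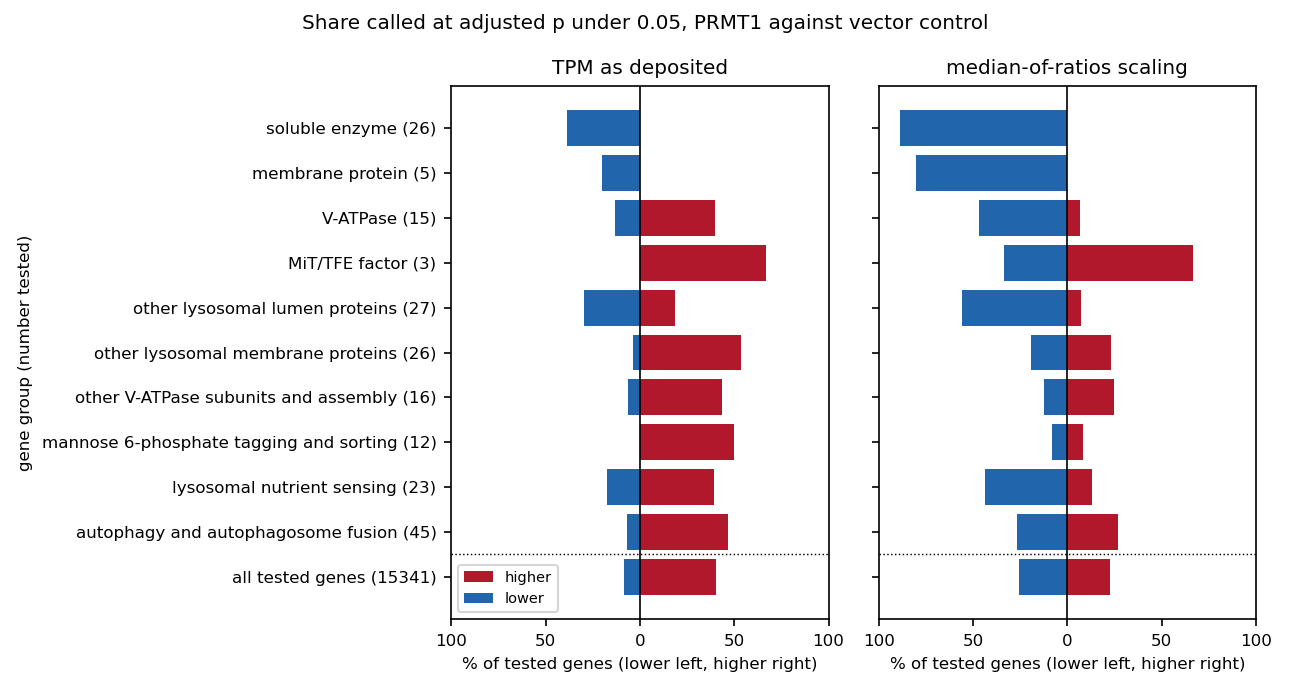
Bars give the percentage of tested genes called higher (right) and lower (left) in each group of members and each further list, with all tested genes at the bottom, for TPM as deposited and after median-of-ratios scaling. Of the soluble enzymes 38.5% were lower and 0% higher with TPM as deposited, against 8.64% lower and 40.3% higher of all tested genes, and of the V-ATPase genes 40% were higher and 13.3% lower with TPM as deposited, against 6.67% higher and 46.7% lower after median-of-ratios scaling. After that scaling 22.5% of all tested genes were higher and 25.5% lower.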

How the data were processed

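Poly(A)-selected RNA was sequenced from 3 PRMT1 overexpression and 3 vector control libraries of HEK293T cells. The authors deposited TPM per Ensembl gene, and each column adds up to 1000000. Trimmomatic 0.36, the aligner STAR 2.5.2b, and featureCounts with Subread 1.5.2 are listed with GRCh38 per the submitters' processing notes. How TPM was computed, with which annotation and strand setting, is not given in the sources used here. Of 57500 identifiers, 56410 were found in a gene name table and 56898 in GENCODE 29 (GRCh38), the source of coordinates, exon lengths and GC content, which may differ from the authors' annotation. Multiplied by exonic length, 95.5 to 95.7% of values under 50 reads were whole within 0.05 of a read, and 3 reads of a 1 kb gene correspond to 0.459 to 0.526 TPM. Such limits cover counting error only. Libraries of a group differed by more than counting noise (chi-square per degree of freedom 2.70 to 24.6), so none was taken for a duplicate.

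Genes were tested when 3 or more of the 6 libraries reached 1 TPM. The test was limma 3.58.1 (R 4.3.3) on log2(TPM + 1), with lmFit, eBayes with a mean-variance trend, no covariate, and Benjamini-Hochberg adjustment over all tested genes. This scale understates the change of low genes. The fit was tested on simulated data, where it recovered 9.23% of log2 changes of 0.5, 72.6% of those of 1 and 93.5% of those of 2. It made 8 false calls. Far fewer genes were changed there than were called in the data, so these shares do not carry over directly. The alternatives tried were other pseudocounts (0.1 and 5 TPM), other filters (none, or 5 TPM), other scalings (median-of-ratios, quantile, PRMT1 removed, GC content corrected), other variance models (no trend, array weights, a block for the replicate number) and other sets of libraries (each left out singly, and both that stand apart left out). The members and lists were chosen with earlier results of these data known. Named are the 3 transcription factors, up to 5 called members of each role with the smallest p, called members that go against most of their role, members called in opposite directions by TPM and median-of-ratios scaling, and up to 3 called genes per direction and further list. Other members are given with their log2 fold change. A gene that this rule names in the further lists is not reported here.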

Additional observations from a re-analysis of the deposited data

How the results depend on the processing

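Among all tested genes the split between higher and lower was 6190 and 1325 with TPM as deposited, 3448 and 3913 after median-of-ratios scaling, 3109 and 2979 under quantile normalization, and 7540 and 880 with PRMT1 taken out. Lower calls numbered 2838 with array weights and 2082 without vector control library 3 and PRMT1 library 2. With 1 library left out, 4661 to 5677 genes were higher and 928 to 1513 lower, of 14496 to 15095 tested. Of the members, 8 were higher and 13 lower, 3 and 35 after median-of-ratios scaling, 4 and 22 under quantile normalization and 13 and 12 with PRMT1 taken out, with 27 lower under array weights and 26 lower without the 2 libraries named. Leaving out 1 library at a time gave 5 to 9 higher, the lowest without PRMT1 library 1, and 12 to 18 lower, the highest without vector control library 3. In the 6 further lists 62 were higher and 17 lower, 28 and 45 after median-of-ratios scaling and 26 and 38 under quantile normalization. Their lower calls were 9 with PRMT1 taken out, 11 without the variance trend, 36 with array weights, 31 without the 2 libraries, and 9 to 19 with 1 library left out (9 without PRMT1 library 1, PRMT1 library 3 or vector control library 1, and 10 without vector control library 2). The sign turned after median-of-ratios scaling for ATP6V0B (-0.0806), ATP6V0D1 (-0.00604), ATP6V0E1 (-0.11) and TFE3 (-0.29), and under quantile normalization for TFE3 (-0.0563). Over the 22 named members and all alternatives, 360 of 395 values kept direction and side of the threshold, 30 lost the call and 5 turned sign. The cause was not tested. These 22 are the called members and TFE3, so calls that other members gained under an alternative are not in this tally. With the replicate number as a block 9 members were higher and 12 lower, where 6275 and 1314 of all 15341 tested genes were. Same-numbered libraries of the groups did not deviate together (correlations of -0.033, 0.059 and 0.020). No pairing by number was thus visible, though 3 libraries per group cannot exclude that same-numbered libraries were handled together. Counts of genes with the short and the longer promoter motif stayed at 12 and 3 genes when only the 250 bases before the start were read. Genes near 1 TPM, such as IDUA, rest on few reads.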
